A study of Homo sapiens with 18 samples.

Results

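The genes described here are 10 transcripts commonly read as the output of the MAPK pathway: DUSP4, DUSP5, DUSP6, SPRY2, SPRY4, SPRED1, ETV4, ETV5, PHLDA1 and IER3. They were taken as a list by symbol, and each was read from the probe set, among those annotated to that symbol alone, with the highest mean over the panel. All 10 were measured, out of 19774 genes with a single-gene probe set. The panel was made of 18 established lines, all labelled CRC for colorectal cancer, and total RNA of each was put on 1 array, so no line had a replicate and a value carries no error of its own. The values are log2 intensities, in which a step of 1 is a doubling of signal. The one grouping the labels give is the culture medium. CAR1, CL40, HT55, HUTU80, LS180, OUMS23, RKO, SW48, SW948 and SW1463 (10 lines) grew in DMEM/F-12 with 15 mM HEPES. COLO320HSR, HCT116, KM12, LS513, MDST8, NCIH716, RCM1 and SNUC1 (8 lines) grew in RPMI-1640 with 25 mM HEPES, a 1% glucose supplement and 100 µM sodium pyruvate. Glutamine, fetal bovine serum, penicillin and streptomycin were common to both media. The labels name no inhibitor, added ligand or mutation. HUTU80 is widely catalogued as a line of the duodenum, although it carries the same label as the rest.

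In the MAPK pathway, growth factor receptors load RAS with GTP, and RAS switches on the kinases RAF, MEK and ERK in turn. Active ERK raises the transcription of a set of genes within hours, and many of these encode brakes on the pathway itself: phosphatases that take the phosphate off ERK, and Sprouty and SPRED proteins that act on the receptor and RAS end. In colorectal cancer the pathway is often driven by mutated RAS or RAF or by receptor ligands, and the RNA of these output genes is used as a readout of its activity, although each of them also answers to other signals.

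RefSeq promoter windows (assembly GRCh38.p14), running from 250 bases before to 50 bases after a transcript start, were matched for 5 of the 10 genes, in 7 windows. The 4 printed here belong to genes whose levels are described next. Capitals mark CCGGAA, the core that ETS factors such as ETV4 and ETV5 recognise, or its reverse complement, and all are written in the direction of the gene.
DUSP6 chr12:89352452-89352751 (minus strand): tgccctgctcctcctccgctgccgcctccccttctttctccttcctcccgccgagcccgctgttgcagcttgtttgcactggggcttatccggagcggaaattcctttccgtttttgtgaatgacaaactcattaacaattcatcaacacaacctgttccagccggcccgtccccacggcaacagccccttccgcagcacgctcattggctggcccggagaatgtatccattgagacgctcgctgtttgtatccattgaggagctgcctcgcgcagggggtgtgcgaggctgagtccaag
SPRY2 chr13:80341077-80341376 (minus strand): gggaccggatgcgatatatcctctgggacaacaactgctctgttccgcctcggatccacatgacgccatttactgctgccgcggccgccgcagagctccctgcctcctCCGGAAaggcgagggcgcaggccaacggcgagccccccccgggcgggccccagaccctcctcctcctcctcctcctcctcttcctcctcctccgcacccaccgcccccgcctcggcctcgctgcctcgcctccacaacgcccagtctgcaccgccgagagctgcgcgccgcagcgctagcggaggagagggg
SPRY4 chr5:142324198-142324497 (minus strand): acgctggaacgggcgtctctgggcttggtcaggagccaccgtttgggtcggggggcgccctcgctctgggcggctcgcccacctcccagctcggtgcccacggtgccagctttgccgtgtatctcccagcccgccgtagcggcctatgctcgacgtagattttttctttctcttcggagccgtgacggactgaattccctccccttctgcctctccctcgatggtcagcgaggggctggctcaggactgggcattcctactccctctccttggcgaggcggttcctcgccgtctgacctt
PHLDA1 chr12:76031727-76032026 (minus strand): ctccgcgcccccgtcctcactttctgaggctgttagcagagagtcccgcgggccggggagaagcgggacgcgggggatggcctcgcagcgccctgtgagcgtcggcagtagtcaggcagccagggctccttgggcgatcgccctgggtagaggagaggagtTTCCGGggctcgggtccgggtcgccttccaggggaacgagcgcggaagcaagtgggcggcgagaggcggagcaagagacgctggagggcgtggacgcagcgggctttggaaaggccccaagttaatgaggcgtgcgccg
The ETS core lay at −89 to −84 in the PHLDA1 window and at −142 to −137 in the SPRY2 window printed here, counted from the transcript start. The other SPRY2 windows, of other transcript starts and not printed, did not hold it. The core was in 2 of the 7 windows, and 17.2% of the 35116 windows in the table held it on either strand. Neither the AP-1 motif TGANTCA (in 7.71% of all windows), nor the cyclic AMP response element TGACGTCA (1.85%), nor the CArG box of serum response factor (1.29%) was found in the 7 windows on either strand. A match is a run of letters in this window and not a shown binding site.

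The output genes differed widely between lines. A range of 3 log2 units or more over the panel was seen for 9 of the 10, where 32.2% of the 15212 genes above background in at least 1 line had such a range. The ranges ran from 2.56 for SPRED1 to 8.53 for IER3, with a median of 7.17, against a median of 2.14 over those 15212 genes. The SD over lines was above that of the median gene for all 10. Background was set at 3.89 log2 units from genes of other tissues, and 5 of the 180 values did not exceed it.

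**Figure D1:**
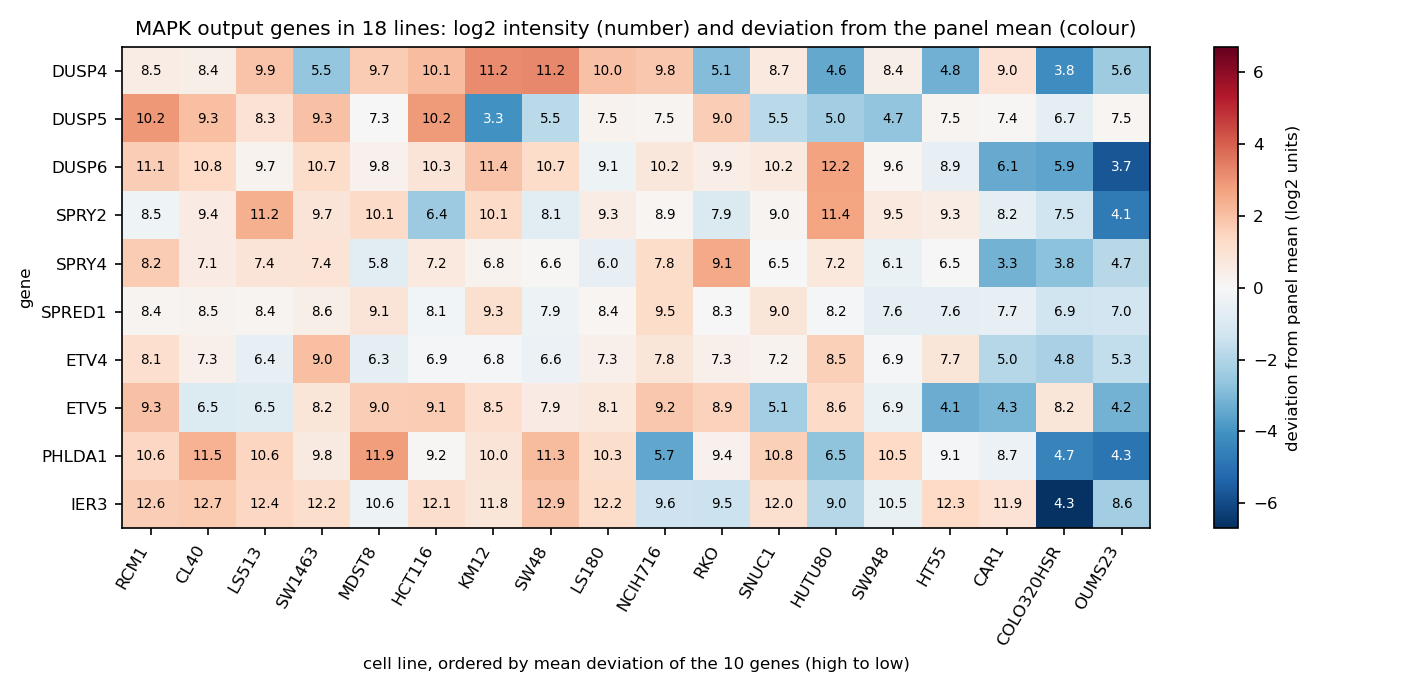
Log2 intensity (number) of the 10 output genes (rows) in the 18 lines (columns, ordered by their mean deviation over the genes), coloured by the deviation from the gene's panel mean in log2 units. RCM1, at the high end, was among the 3 highest lines for 6 of the genes, and COLO320HSR and OUMS23, at the low end, were each among the 3 lowest for 8.

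Of the 3 phosphatases, DUSP4 and DUSP6 each split the panel and DUSP5 did not. DUSP4, a nuclear phosphatase of ERK and other MAP kinases (probe set 204015_PM_s_at), fell into 2 sets of lines with none between them. In 12 lines it lay between 8.40 (SW948) and 11.22 (SW48), with KM12 at 11.18. In the other 6 it was low: 5.64 in OUMS23, 5.46 in SW1463, 5.11 in RKO, 4.79 in HT55, 4.61 in HUTU80 and 3.84 in COLO320HSR, where it was not above background. The low set holds lines in which other output genes were high, such as SW1463 and HUTU80. The other DUSP4 probe sets gave the same 2 sets of lines (r = 0.99 with each), but not the same order within the low set. By 204014_PM_at HUTU80 (3.47) lay above RKO (3.08) and OUMS23 (3.45), and by 226034_PM_at RKO was lowest (2.61). By 204014_PM_at no line of the low set exceeded background, SW1463 being the highest of them at 3.88. Whether KM12 or SW48 was highest depended on the probe set used.

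DUSP6, which removes phosphate from ERK in the cytoplasm (208893_PM_s_at), was high in all but 3 lines. It lay between 8.94 (HT55) and 12.17 (HUTU80) in 15 lines, with a panel median of 10.04. It was 6.12 in CAR1, 5.93 in COLO320HSR and 3.74 in OUMS23, the last not above background. All 3 DUSP6 probe sets gave this split. HUTU80 thus had the highest DUSP6 of the panel together with a DUSP4 in the low set.

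DUSP5, a nuclear phosphatase specific for ERK (209457_PM_at, its only probe set here), followed neither. It was highest in RCM1 (10.24) and HCT116 (10.16), with a median of 7.49, and was not above background in KM12 (3.26). SW948 was next lowest at 4.70 and HUTU80 followed at 5.01. In KM12 the phosphatases therefore went in different directions: DUSP4 lay 3.15 above its panel mean, while DUSP5 was not above background.

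The Sprouty and SPRED proteins restrain signalling between the receptor and RAF. SPRY2 (204011_PM_at) was highest in HUTU80 (11.44) and LS513 (11.20), had a median of 9.17, and was lowest in OUMS23 (4.06). HCT116 came next at 6.39, although DUSP5 was close to its maximum in that line. SPRY4 (221489_PM_s_at) was highest in RKO (9.05) and RCM1 (8.22), had a median of 6.68, and did not exceed background in COLO320HSR (3.76) and CAR1 (3.34). OUMS23 had 4.68. The other SPRY4 probe set stayed at background in all lines and carried no information. SPRED1 (226837_PM_at), which brings the RAS GTPase-activating protein neurofibromin to the membrane, was the steadiest of the 10. It ran from 9.49 in NCIH716 and 9.30 in KM12 to 6.95 in OUMS23 and 6.94 in COLO320HSR, and was above background in every line.

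ETV4 and ETV5 are ETS transcription factors of the PEA3 group and are themselves switched on by ERK signalling. ETV4 (1554576_PM_a_at) was highest in SW1463 (8.97) and HUTU80 (8.53), had a median of 7.02, and was lowest in OUMS23 (5.31), CAR1 (5.01) and COLO320HSR (4.77). ETV5 (203349_PM_s_at) was highest in RCM1 (9.33), NCIH716 (9.18) and HCT116 (9.05), with a median of 8.11. It was low in SNUC1 (5.08), CAR1 (4.28), OUMS23 (4.20) and HT55 (4.05). The pair parted most clearly in HT55, where ETV4 was 7.73, above its median, while ETV5 was at its panel minimum. They also parted in COLO320HSR, which had the lowest ETV4 but an ETV5 of 8.16, near the median. The lowest line of ETV5 depended on the probe set. With the mean of all its probe sets it was OUMS23, and by 216375_PM_s_at it was CAR1 (4.16), with HT55 at 4.64. Across lines the 2 factors had r = 0.37 (rho = 0.33).

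PHLDA1, a pleckstrin-homology-like protein induced by growth factors (225842_PM_at), was highest in MDST8 (11.94), CL40 (11.48) and SW48 (11.30), with a median of 9.91. It was low in 4 lines: 6.49 in HUTU80, 5.67 in NCIH716, 4.70 in COLO320HSR and 4.28 in OUMS23. CAR1, at 8.75, was the next line up. By all 6 PHLDA1 probe sets these 4 lines were the lowest, but the gap above them and the order at the top differed. By 218000_PM_s_at HT55 (4.9) lay close above HUTU80 (4.5), whereas by the probe set used HT55 was at 9.09. The probe set used and the next brightest one, 217996_PM_at, had r = 0.93, but the difference between them ran from −1.70 in HCT116 to 1.05 in SW48. With the probe set of largest SD the highest line was RKO in place of MDST8. The order of the highest lines therefore depended on the probe set read.

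**Figure D2:**
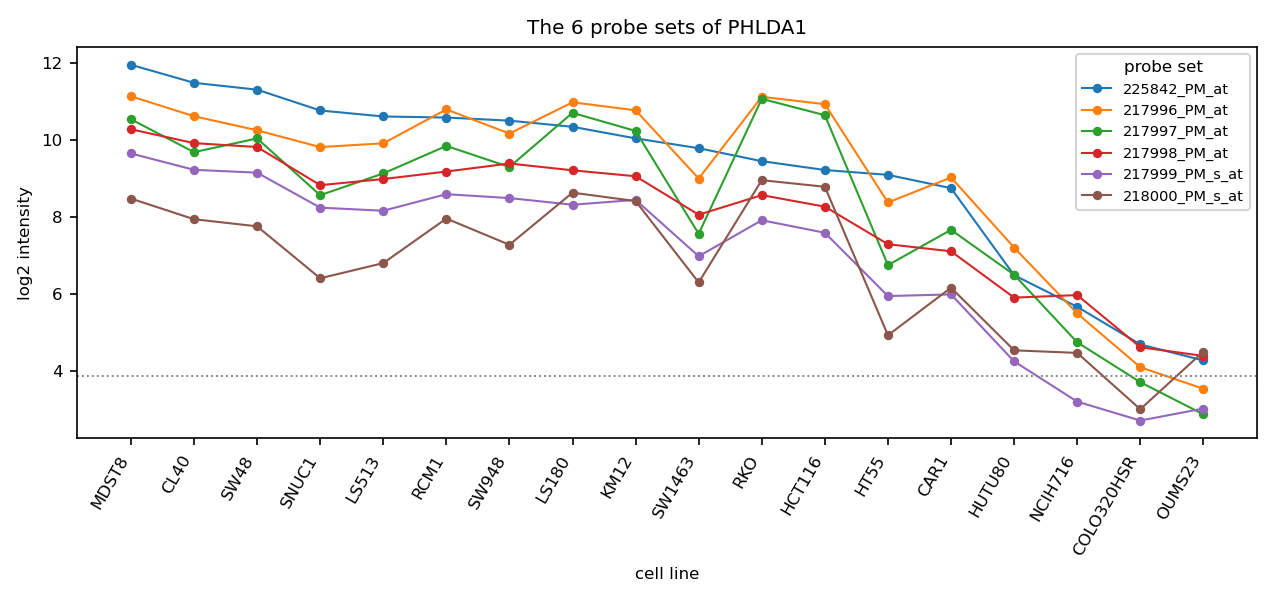
Log2 intensity of the 6 PHLDA1 probe sets in each of the 18 lines; each colour is 1 probe set, the one used is 225842_PM_at, lines are ordered by it, and background is dotted. All 6 are low in OUMS23, COLO320HSR, NCIH716 and HUTU80, while the difference between 225842_PM_at and 218000_PM_s_at reaches 4.35 in SNUC1.

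IER3, an immediate early gene that prolongs ERK phosphorylation and affects cell survival (201631_PM_s_at, its only probe set here), was bright in most of the panel. It was highest in SW48 (12.85) and CL40 (12.74), with a median of 11.98. Lower values were seen in NCIH716 (9.56), RKO (9.53), HUTU80 (9.03) and OUMS23 (8.65). COLO320HSR stood apart from all of these at 4.32, so that 4.33 of the 8.53 log2 units of range separated this line alone from the others.

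Averaged over the 10 genes, each as its deviation from its own panel mean, the lines spanned 4.07 log2 units. RCM1 was highest, with a mean deviation of 1.29 ± 0.93 (SD over the 10 genes), and 9 of its genes were above their panel means. CL40 followed at 0.86, LS513 at 0.79, SW1463 at 0.75, MDST8 at 0.68, HCT116 at 0.67, KM12 at 0.63, SW48 at 0.59 and LS180 at 0.55. With 1 array per line, the order of these 9 could not be tested. Lower means were found in NCIH716 at 0.31, RKO at 0.15, SNUC1 at 0.12, HUTU80 at −0.15, SW948 at −0.22, HT55 at −0.49 and CAR1 at −1.11. COLO320HSR (−2.62 ± 2.17) and OUMS23 (−2.78 ± 1.84) were far lower than the rest. A mean includes values not above background as they stand. With the median over genes in place of the mean, HUTU80 was at 0.30, with its sign changed, NCIH716 at 0.80, HT55 at −0.058 and CAR1 at −0.58.

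The low lines were low in different ways. In OUMS23, 9 of the 10 genes were at least 1 log2 unit below their panel means, with DUSP6 not above background, and DUSP5 alone was not that low, with a deviation of 0.15. In COLO320HSR 8 genes were that far below, with IER3 at −6.64, whereas ETV5 stood at 0.80. CAR1 had 4 genes that low, with DUSP6 at −3.36, and DUSP4 at 0.97 was its highest. HUTU80 had a mean near 0 with its genes on both sides: 4 lay at least 1 log2 unit above and 4 at least 1 below, from DUSP6 at 2.70 to DUSP4 at −3.42. NCIH716 combined an ETV5 deviation of 1.82 with a PHLDA1 deviation of −3.49.

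**Figure D3:**
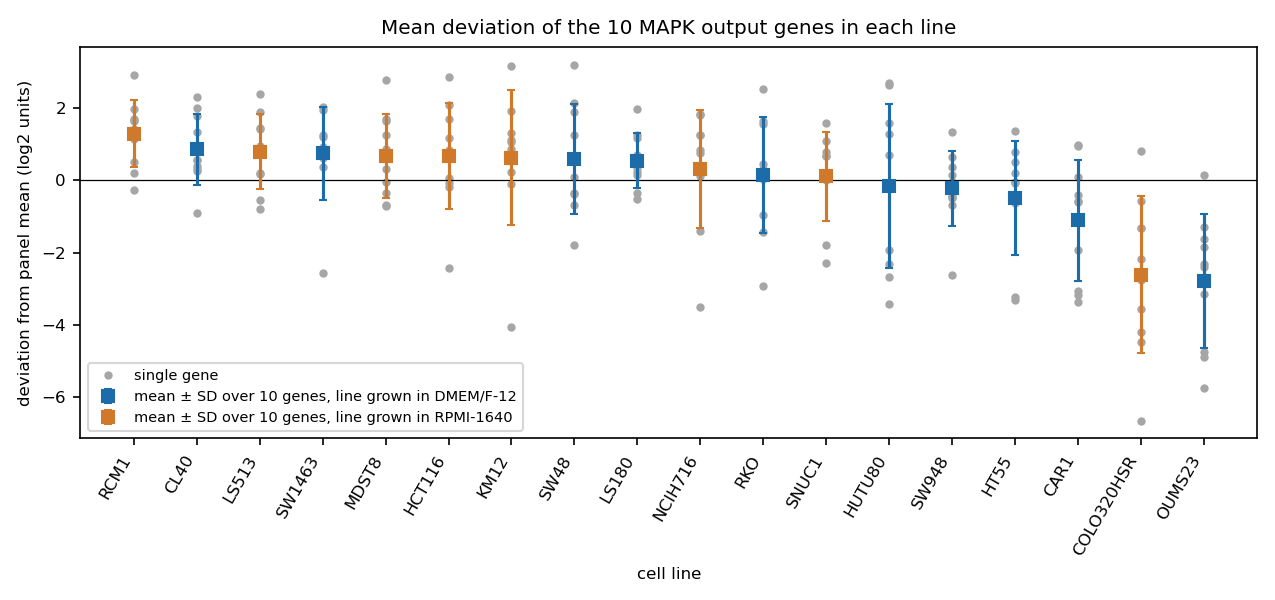
Deviation of each output gene from its own panel mean (points, log2 units) and their mean with SD over the 10 genes (square and bar, coloured by medium) in each line, ordered by the mean. RCM1 lies highest at 1.29, and COLO320HSR and OUMS23 lie lowest at −2.62 and −2.78, with HUTU80 showing the widest spread of genes (SD 2.27).

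The labelled tissue was checked against 7 epithelial markers. All 7 exceeded background in 9 lines and 6 did so in 6 further lines, while RKO had 4, MDST8 had 3 and COLO320HSR had 2, with EPCAM, KRT18, KRT19, CDH1 and VIL1 not above background in COLO320HSR. The mean log2 intensity of the list ran from 4.59 in MDST8, 4.76 in COLO320HSR and 4.83 in HUTU80 to 11.79 in HT55. MDST8, with EPCAM, KRT19, CDH1 and VIL1 not above background, nevertheless had a mean deviation of output genes of 0.68, and OUMS23, the lowest line, had 6 of 7 epithelial markers. Over the panel the mean deviation of the epithelial list had r = 0.28 with that of the output genes (rho = 0.26, and r = 0.14 without the 2 lines farthest from the median). NCIH716 had all 5 neuroendocrine markers above background, SYP only just so at 3.96. Of 6 fibroblast markers, HUTU80 had 5 and NCIH716 had 4, and COL1A1 among them exceeded background in all 18 lines. Of the 6 epithelial markers above background in HUTU80, EPCAM (4.09), CDH1 (4.08) and KRT19 (3.97) were close to it. The part of these differences in cell state in the output gene levels was not tested.

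Co-variation was described over the 45 pairs of output genes, with no test, since the genes share lines and arrays. DUSP4 and DUSP6 fell into separate sets of lines, so the 17 pairs with either of them were read within their sets. The other 28 pairs had a mean r of 0.32 and a median of 0.36, from −0.29 (DUSP5 with SPRY2) to 0.78. All gene pairs above background, with clustered genes kept, had a mean r of 0.00364. Of the 28 pairs, 2 reached r = 0.6, which is 7.14%, where 1.45% of all gene pairs did so. The 2 shares are for unlike sets, since clustered genes were left out of the 28 pairs only. Without OUMS23 and COLO320HSR the mean r of the 28 pairs was 0.0756, while the same 2 pairs stayed at 0.6 or more (SPRY4 with ETV4 at 0.66, PHLDA1 with IER3 at 0.62). The mean r of the list rested largely on the 2 lines. The 2 pairs rested on them less, but SPRY4 with ETV4 fell below 0.6, to 0.59, without CAR1 and COLO320HSR.

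SPRY4 and ETV4 were 1 of the 2 pairs. They had r = 0.78 (rho = 0.67) over the 18 lines, 0.75 over the DMEM/F-12 lines and 0.92 over the RPMI-1640 lines. Of 15211 other genes, SPRY4 was the one most like ETV4, and ETV4 ranked 4 for SPRY4. Without CAR1 and COLO320HSR, the lines farthest from the SPRY4 median, r was 0.59. RKO departed from the pattern, with the highest SPRY4 of the panel beside an ETV4 of 7.26. The other pair was PHLDA1 and IER3, with r = 0.78 (rho = 0.66), 0.78 within DMEM/F-12 and 0.81 within RPMI-1640. Without OUMS23 and COLO320HSR its r was 0.62. NCIH716 and HUTU80, low in both genes, lay with OUMS23 at the lower end. MDST8 had the highest PHLDA1 but an IER3 of 10.62, below its median.

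**Figure D4:**
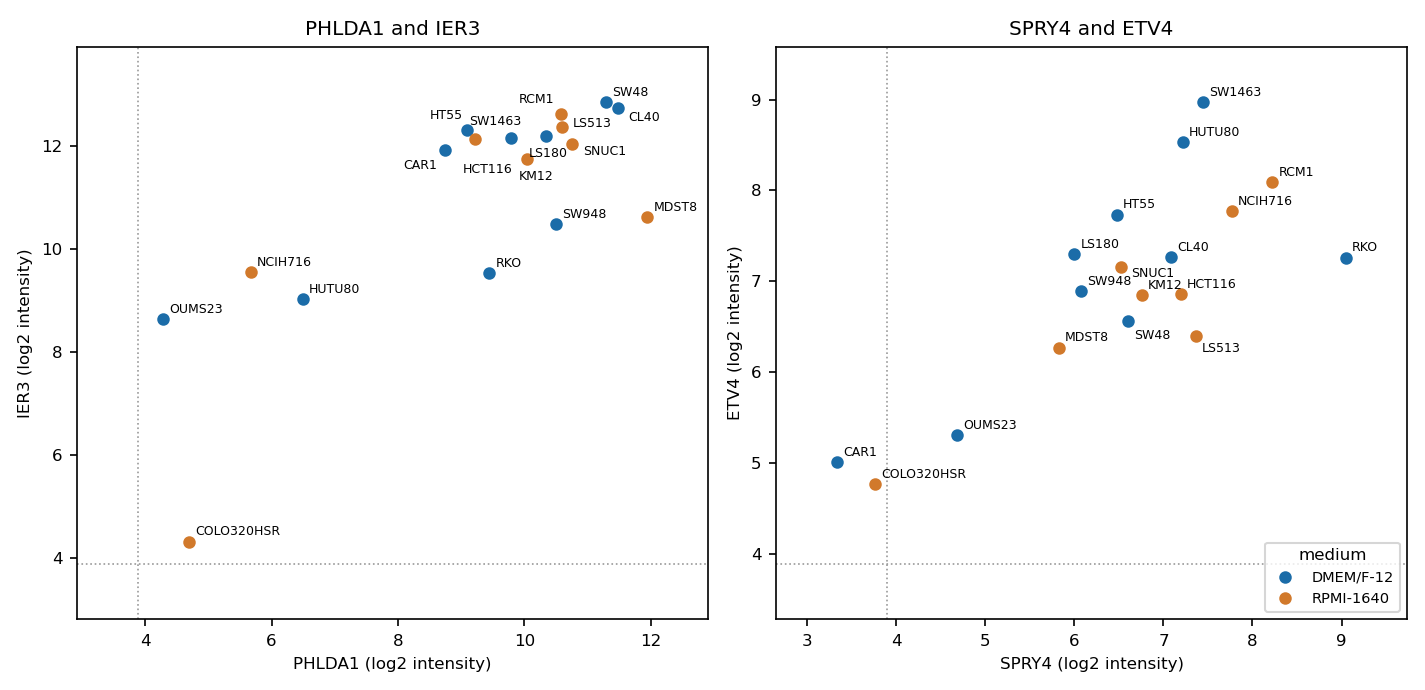
Log2 intensities of PHLDA1 and IER3 (left) and of SPRY4 and ETV4 (right), 1 point per line, coloured by medium, with the background level of 3.89 dotted. Both pairs have r = 0.78 over 18 lines, and COLO320HSR lies at the lower left of both plots.

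Pairs with a clustered phosphatase were read within its sets of lines. In the 15 lines with high DUSP6, its r was 0.45 with ETV5, 0.38 with ETV4 and 0.31 with SPRY4, and −0.26 with PHLDA1. Over all 18 lines, where the gap between its sets enters, DUSP6 had higher values. They were 0.78 with ETV4, 0.77 with SPRY4, 0.69 with SPRED1 and 0.68 with SPRY2. In the 12 lines with high DUSP4, its r was highest with ETV5 (0.42) and lowest with DUSP5 (−0.35). In the 6 lines with low DUSP4, its r was 0.65 with IER3 (rho = 0.26) and 0.55 with DUSP5 (rho = 0.60), over few lines of which 1 had DUSP4 not above background. By the DUSP4 probe set 204014_PM_at none of these 6 lines exceeded background, so these r may rest on little signal. The DUSP6-low lines OUMS23, COLO320HSR and CAR1 were also the 3 lowest lines for ETV4 and for SPRY4. DUSP5 stood alone: against the mean of the other 9 genes its r was 0.045 (rho = 0.15). For the other unclustered genes this r was 0.72 for SPRED1, 0.67 for PHLDA1, 0.67 for SPRY4, 0.63 for IER3, 0.60 for ETV4, 0.46 for SPRY2 and 0.36 for ETV5. Without OUMS23 and COLO320HSR these values lay between −0.18 (SPRY2) and 0.43 (SPRY4). For the clustered phosphatases, r with the mean of the other 9 genes over all 18 lines was 0.82 for DUSP6 and 0.40 for DUSP4. Without OUMS23 and COLO320HSR it was 0.47 for DUSP6 and −0.023 for DUSP4. In the 15 lines with high DUSP6 it was 0.10, and in the 12 with high DUSP4 it was 0.053.

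Genes outside the list were ranked by likeness, as Pearson r over the 18 lines among 11947 genes above background in at least 6 lines. The gene most like SPRY4 was SPRY4-IT1 (r = 0.83), a transcript named for an intron of SPRY4, and the array values do not show whether both were read from 1 precursor. MYEOV was most like DUSP5 (r = 0.68) and RBMS2 came next (0.67). For DUSP4 they were NT5E (0.80) and MLPH (0.80), for DUSP6 SLCO4A1 (0.82) and FBXL16 (0.81), for SPRY2 SCAMP1-AS1 (0.81) and SPCS1 (0.80), and after SPRY4-IT1, for SPRY4, MKLN1 (0.82). For SPRED1 they were SNX15 (0.77) and SLC25A5 (0.76), for ETV4 DOCK6 (0.77) and PAQR4 (0.76), and for ETV5 PCNX1 (0.78) and ACOT7 (0.78). PHLDA1 was most like BACE2 (0.89) and EVA1C (0.89), and IER3 most like CYBA (0.92) and CD9 (0.90). Removing the 2 lines farthest from each gene's median lowered SPRY2 with SCAMP1-AS1 most, to 0.47, while PHLDA1 with EVA1C kept 0.86 and SPRY4 with SPRY4-IT1 kept 0.84.

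The mean deviation of the 10 genes was most like PHLDA2 (r = 0.89), which ran from 3.78 in COLO320HSR to 11.44 in CL40. SLCO4A1 (0.87), TIMP1 (0.84), TMEM219 (0.82), OGFOD3 (0.82), FBXL16 (0.81), MAT2B (0.81), PAQR4 (0.80), SHFL (0.80) and SPCS1 (0.78) followed. In the opposite direction FREM2 had r = −0.93 and was highest in COLO320HSR (8.62), followed by TRIM45 (−0.85), ZNF606 (−0.83), JARID2 (−0.81) and CHFR (−0.80). Without OUMS23 and COLO320HSR, FREM2 still had r = −0.84 and ZNF606 −0.78, whereas PHLDA2 had 0.57 and TRIM45 −0.37.

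The rest of the pathway was read from 6 lists of 64 genes, of which 54 were measured and 53 exceeded background. A range of 3 log2 units or more was seen for 37 of these, mainly at the 2 ends of the pathway: 9 of 10 receptors, 6 of 6 EGFR ligands and 12 of 13 other output genes, against 1 of 6 adaptors and exchange factors, 1 of 6 genes of RAS and the kinase cascade, and 8 of 12 other brakes. Among receptors, ERBB3 ran from 11.13 in HT55 to 3.02 in COLO320HSR, FGFR2 was highest in OUMS23 (10.30), and ERBB4 exceeded background in 2 lines, NCIH716 the higher at 10.12. Among ligands, EREG (epiregulin) reached 10.33 in HCT116, TGFA 10.08 in CAR1 and NRG1 11.22 in MDST8. EREG was at 2.46 in OUMS23 and 2.62 in COLO320HSR, neither above background. Among adaptors, GAB1 was highest in OUMS23 (8.12), SHC1 in RKO (11.22) and SOS2 in HT55 (7.92). In the cascade itself HRAS ran from 10.02 in COLO320HSR to 7.41, MAPK3, which encodes ERK1, was highest in HT55 (7.09), and KSR1, a scaffold for RAF, MEK and ERK, was highest in OUMS23 (8.42).

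Of the 53 genes, 7 had r of 0.6 or more with the mean deviation of the 10 output genes, where 1.05% of all genes did so. They were EREG (r = 0.70) and 6 of the 13 other output genes: IER2 (0.69), LIF (0.68), JUNB (0.66), FOSL1 (0.63), EGR1 (0.61) and EGR3 (0.61). IER2, JUNB, FOSL1 and EGR1, and further on MYC, SPRED2 and GRB2, were chosen after their values were seen. The median r of the 13 was 0.59, while for MYC, another classical target, it was −0.12, with the highest MYC in COLO320HSR (13.09). KSR1 was the 1 gene with r of −0.6 or less (−0.67), where 2.22% of all genes were. Among the other brakes, SPRY1 (r = 0.025, highest in NCIH716 at 9.78), DUSP10 (0.16, highest in MDST8) and DUSP2 (0.30, highest in HT55 at 8.39) varied most. ETV1, of the same ETS group as ETV4 and ETV5, had r = 0.066 and reached 10.81 in NCIH716. Without OUMS23 and COLO320HSR only 1 gene, SPRED2 (0.61), reached 0.6, EREG had 0.55, and KSR1 had 0.077. In the same lines the adaptor GRB2 was past the negative limit, at −0.70, against −0.34 over all 18 lines.

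The media were compared with limma over the 15212 genes, DMEM/F-12 minus RPMI-1640. No output gene and no other gene passed an adjusted p of 0.05 (0% called by limma), and the lowest adjusted p was 0.999. At an unadjusted p under 0.05 there were 396 genes (2.60%) and 0 of the 10. Lower means in DMEM/F-12 were seen for 8 of the 10, with a median difference of −0.28, where the median over all genes was −0.0020. The share of all genes with lower means is not given here, and the 10 genes share the same lines. Among the 8, DUSP5, SPRY2, SPRY4 and PHLDA1 changed sign when single lines were left out. A line belongs to 1 medium, so medium and line cannot be told apart.

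DUSP4 had the largest difference. It ran from 4.61 to 11.22 in DMEM/F-12 (median 7.02), against 3.84 to 11.18 in RPMI-1640 (median 9.78), and the groups overlapped over almost the whole range. Its mean was 7.27 ± 2.42 (SD, n = 10) for the DMEM/F-12 lines and 8.98 ± 2.23 (SD, n = 8) for the RPMI-1640 lines, a difference of −1.71 with a 95% interval of −3.90 to 0.47. Of its 6 low lines, 5 were grown in DMEM/F-12. ETV5 ran from 4.05 to 8.92 in DMEM/F-12 (median 7.40), against 5.08 to 9.33 in RPMI-1640 (median 8.73), and differed by −1.34 (95% interval −2.99 to 0.31). SPRED1 had medians of 8.03 in DMEM/F-12, against 8.75 in RPMI-1640. It differed by −0.63 (−1.28 to 0.03), with the smallest unadjusted limma p of the 10, 0.0590, and an adjusted p of 0.999. ETV4 (0.31) and IER3 (0.51) were the 2 with higher means in DMEM/F-12. The remaining 5 genes differed by between −0.64 (DUSP6) and −0.04 (PHLDA1), and with this number of lines the intervals were several log2 units wide, from −2.28 to 2.19 for PHLDA1.

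**Figure D5:**
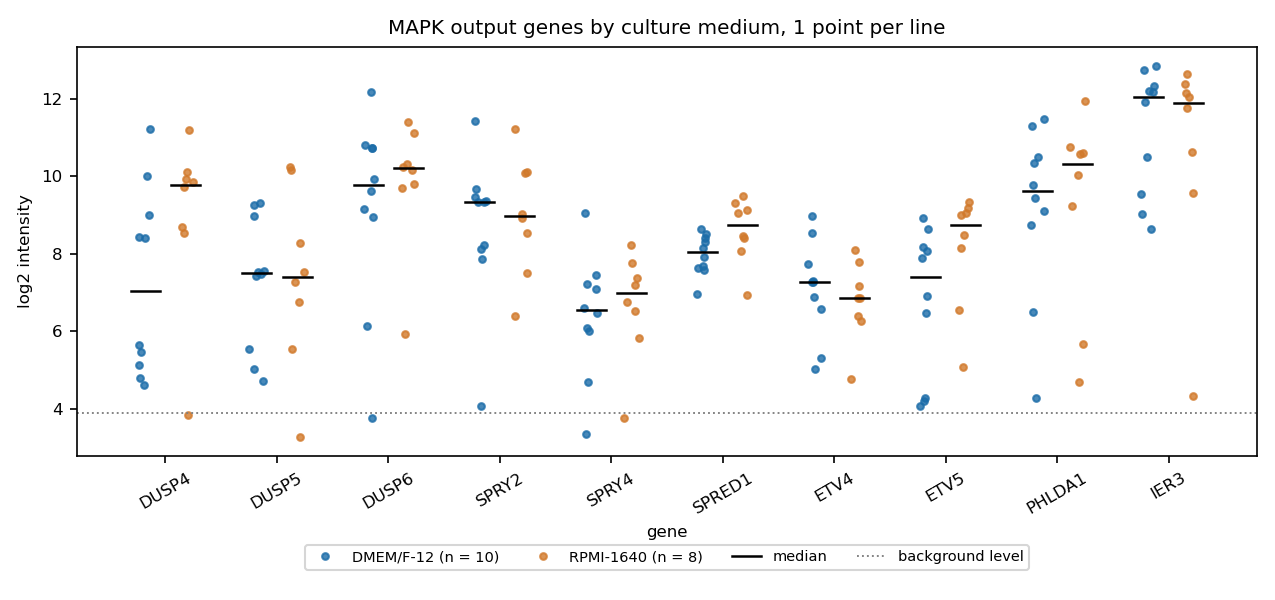
Log2 intensity of the 10 output genes in the lines grown in DMEM/F-12 (left of each pair, n = 10) and RPMI-1640 (right, n = 8), 1 point per line, with the group median as a bar and background dotted. The groups overlap for every gene, DUSP4 having a median of 7.02 in DMEM/F-12, against 9.78 in RPMI-1640.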

How the data were processed

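Total RNA of 18 cell lines was biotin-labelled and measured on 1 array per line. The authors deposited log2 intensities, computed by RMA with affy per the submitters' processing notes (tool versions: not given in the sources used). Values lay between 2.31 and 13.71, array medians between 3.65 and 3.69, and nothing further was normalized. RMA forces the arrays to 1 distribution, so a shift of all genes in a line would not be seen.

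Of 54613 probe sets, 40914 were annotated to 1 gene, 864 to several and 12835 to none in the array annotation, which can be old. Of the single-gene ones, 40858 had an Entrez ID in RefSeq (GRCh38.p14). Each gene was read from its probe set with the highest mean, and no level was compared between probe sets of different genes. Background, 3.89, was the 95th percentile over other-tissue genes (60 listed, 53 measured, 62 probe sets). A line had 10989 to 11505 genes above it.

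Groups came from the culture medium in the labels' protocols. The media were compared with limma 3.58.1 (lmFit, eBayes with trend, Benjamini-Hochberg over 15212 genes) in R 4.3.3. Other values were computed in Python 3.11.15. Lines were called clustered for a gene where a gap over 0.333 of its range had at least 3 lines on each side, and r was then taken within sets of at least 6 lines. Correlations carry no p. The scripts were tested on simulated data.

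The members, lists, limits and tests were chosen with earlier results of these data known. Named besides the 10 members were the 3 genes of largest SD in each pathway list, the 2 genes most like each member, and the 10 most like and 5 least like their mean. IER2, JUNB, FOSL1, EGR1, MYC, SPRED2 and GRB2 fall outside this rule. Alternatives were the probe set rule, array scaling, the background and range limits, the limma trend, Spearman correlation, values floored at background, the median over genes, each medium alone, and leaving out lines. Of 64 listed pathway genes, 10 were not analysed here. The number of arrays limits the precision.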

Additional observations from a re-analysis of the deposited data

Results flagged for a closer look

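Within each medium, the highest and lowest line of each of the 10 genes and of their mean deviation was set against the gap to its neighbour by Dixon's criterion, in 22 groups. The criterion gives about 1 such line in 20 separate groups drawn from 1 normal distribution, and 5 were found, all at the low end. The 22 groups are not separate, since the mean deviation is built from the same genes and lines. The 5 therefore cannot be set against that rate. Among the 8 lines grown in RPMI-1640, COLO320HSR stood apart for DUSP4, at 3.84 with the next line at 8.54, for DUSP6, at 5.93 with the next at 9.69, and for IER3, at 4.32 with the next at 9.56. Its mean deviation over the 10 genes was also apart, at −2.62 with the next line at 0.12. Among the 10 lines grown in DMEM/F-12, OUMS23 stood apart for SPRY2, at 4.06 with the next line at 7.85. The 5 come from 2 arrays and share their normalization, and a second array of either line was not used here.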

How the results depend on the processing

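No paired analysis was possible because each line was measured once and the labels give no replicate numbers. The mean r of the 28 pairs, 0.32, was 0.0756 without the 2 lines farthest from the median level, OUMS23 and COLO320HSR, and 0.22 to 0.36 with each line left out in turn, lowest without OUMS23. The pairs with r of 0.6 or more, 2 in all lines, were 4 with the probe set of largest SD, 9 within DMEM/F-12, 5 within RPMI-1640, 2 without the 2 farthest lines, and 2 to 4 with each line left out, 4 without HUTU80. The span of the lines' mean deviation was 3.64 to 4.07 with each line left out in turn, lowest without RCM1. Under the other alternatives it was 3.76 to 4.36. With the median over genes in place of the mean, the value of HUTU80 changed sign to 0.30 and those of NCIH716 (0.80), HT55 (−0.058), CAR1 (−0.58) and OUMS23 (−2.35) moved. Pathway genes with r of 0.6 or more with that deviation, 7 in all lines, numbered 1 without the 2 farthest lines, and 1 to 10 with each line left out: 1 without COLO320HSR and 4 without OUMS23. Apart from the probe set rule, array scaling, values floored at background and the median over genes, these settings differ in the lines kept. The cause of the differences was not tested. The 2 farthest lines were left out because they were extreme. The count of genes with a range of 3 or more was 9 with any line left out and 8 to 10 under the other alternatives. No alternative gave a medium call for any of the 10 genes. The medium difference changed sign with single lines left out for DUSP5 (−0.69 to 0.31), SPRY2 (−0.66 to 0.23), SPRY4 (−0.70 to 0.0605), PHLDA1 (−0.69 to 0.50) and IER3 (−0.40 without COLO320HSR, otherwise up to 0.79). Of 933 single values under alternatives, 888 were unchanged within the limits set, and 18 medium differences changed sign. The background level is loosely set: its 90th and 99th percentiles were 3.66 and 6.77, and values between 3.89 and 6.77 may hold little signal.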
